A study of Mus musculus with 6 samples.

Results

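RNA of the Notch pathway, in samples sorted for vascular endothelial cells (VECs), was followed through 10 genes chosen by name from the 55487 genes of the table. They were the receptors Notch1 and Notch4, the ligands Dll4, Dll1, Jag1 and Jag2, and the targets Hey1, Hey2, Hes1 and Nrarp. The samples also held RNA of other cell types, as given below. Each name matched 1 row. Mouse retinas were taken at postnatal day (P) 7.5 on a C57BL/6J background. The 3 control pups carried tdTomato FL/+ and Pdgf-icreER, and the 3 mutant pups (Bmal1;CKO) carried Bmal1 FL/FL beside both of these, with 1 library per animal. Tamoxifen was given from P0.5 to P2.5 in both groups, so the Cre driver, its GFP, the reporter and the drug were common to both, and the control animals carried no floxed Bmal1. The sorted cells were double positive for the GFP of the endothelial Cre transgene and for tdTomato, which marks recombination of the reporter and not that of Bmal1 itself.

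In the Notch pathway, a ligand on one cell (DLL4, DLL1, JAG1 or JAG2) binds a receptor on its neighbour, proteases release the intracellular part of the receptor, and this part joins the DNA-binding protein RBPJ to switch on targets such as the repressors HES1, HEY1 and HEY2 and the feedback inhibitor NRARP. In a growing vessel, DLL4 on the leading tip cell activates NOTCH1 in the stalk cells behind it and limits the number of sprouts, whereas JAG1 opposes DLL4 and favours sprouting. NOTCH4 is a receptor found mainly in endothelium. The same pathway also acts in the neural retina, where it keeps progenitors undifferentiated and favours the Müller glia fate.

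Promoters are shown for the 3 genes whose sequence or values bear on the clock and on Notch itself. RefSeq windows of GRCm38.p6 were at hand for 8 of the 10 genes, with 2 for Dll1, and the 250 bases before the start site were searched on both strands for the palindromic E-box CACGTG, which BMAL1 and CLOCK bind, and for TGGGAA, the core that RBPJ binds. Capitals mark the matches. Nrarp (chr2:25180508-25180757, forward strand) held the E-box, beginning 108 bases before its start site. Hey2 (chr10:30842784-30843033, reverse strand) held the RBPJ core, read on the other strand and beginning 207 bases before its start site. Notch1 (chr2:26503823-26504072, reverse strand) held neither and is shown as the 1 gene of the 10 whose groups did not overlap. Its RefSeq start site lies inside the gene as counted here, which runs to 26516663, so the window is not upstream of that longer gene.
Nrarp: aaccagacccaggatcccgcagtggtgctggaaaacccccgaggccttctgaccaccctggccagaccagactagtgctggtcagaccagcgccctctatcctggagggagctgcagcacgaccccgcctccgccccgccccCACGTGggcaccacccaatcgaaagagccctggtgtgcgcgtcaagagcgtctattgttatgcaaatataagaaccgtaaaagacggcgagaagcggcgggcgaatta
Hey2: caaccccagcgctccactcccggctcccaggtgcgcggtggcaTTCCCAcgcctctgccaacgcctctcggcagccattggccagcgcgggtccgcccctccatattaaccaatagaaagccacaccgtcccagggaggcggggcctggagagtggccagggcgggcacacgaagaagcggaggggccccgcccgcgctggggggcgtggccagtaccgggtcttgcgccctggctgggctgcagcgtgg
Notch1: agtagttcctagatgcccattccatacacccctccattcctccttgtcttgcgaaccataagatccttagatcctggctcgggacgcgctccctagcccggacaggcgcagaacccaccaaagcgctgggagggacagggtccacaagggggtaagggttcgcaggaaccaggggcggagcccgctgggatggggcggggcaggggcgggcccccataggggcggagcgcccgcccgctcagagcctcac
Among all 32851 RefSeq windows of this length, 6.02% held the E-box and 21.6% the RBPJ core. Of the 9 windows of these genes, 1 held each. The letters are a description of these windows only.

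The libraries had between 71145068 and 104017800 reads on genes. Values are normalized counts, that is, reads divided by the size factor of the library, and libraries are numbered as in the table (1 to 3 control, 4 to 6 Bmal1;CKO). The test was limma-trend, fitted to log2(normalized count + 1) of all 20459 genes that reached 10 reads in 3 or more libraries, and fold changes (Bmal1;CKO minus control) are on that scale. Bmal1 itself (listed as Arntl) had 1700, 3489 and 2928 normalized counts in control and 1779, 2747 and 2415 in Bmal1;CKO. Its log2 fold change was -0.19 (SE 0.36). The groups overlapped, and the gene-level value does not single out the floxed exon. All 14 endothelial markers had at least 10 reads in every library, with summed levels of 201007 to 396184 normalized counts in control and 123529 to 260122 in Bmal1;CKO, and all 14 had a negative log2 fold change (median -0.45). RNA of other cell types was present as well. In every library the markers of microglia and macrophages, and those of rods, summed to more than the endothelial markers. The levels given here are thus those of the sorted sample as a whole and not of endothelial cells alone. The 9 markers of microglia and macrophages summed to 1386180 to 4103350 in control and 2013410 to 3985840 in Bmal1;CKO, with 8 positive and 1 negative log2 fold changes (median 0.40), and the 8 rod markers to 365174 to 637031 over all libraries. Control library 1 stood apart, with 0 reads on Abcc9, Myh11, Fgf15, Sfrp2, Pax2 and Gad1, markers of mural cells, progenitors, astrocytes and neurons.

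At FDR < 0.05, 0 of the 10 Notch genes and 0% of all tested genes were called by limma-trend. The adjusted p of the 10 genes lay between 0.883 and 0.979. At an unadjusted p under 0.05 there was 1, Notch1, against 4.92% of all tested genes in either direction, 3.17% in the higher direction and 1.75% in the lower. It was also the 1 gene of the 10 with groups that did not overlap, higher in Bmal1;CKO, where 6.62% of all tested genes lay that way round, 4.54% the other way round and 11.2% either way. Of the 10, 4 had a positive log2 fold change (40%, against 56.6% of all tested genes) and 6 a negative one. Their median was -0.18 beside 0.11 for all tested genes. Over all tested genes, 67 were called at FDR < 0.05 by DESeq2, 61 by limma without the trend and 0 by edgeR and limma-voom. By limma-trend, 1007 had an unadjusted p under 0.05. edgeR's quasi-likelihood test, limma-voom and DESeq2 also called 0 of the 10 at FDR < 0.05, with 0 (edgeR, TMM scaling), 1 (edgeR, deposited size factors), 1 (limma-voom) and 2 (DESeq2) at an unadjusted p under 0.05. The shares of all tested genes at that threshold were 3.8%, 3.87%, 4.87% and 5.92% in the same order.

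**Figure D1:**
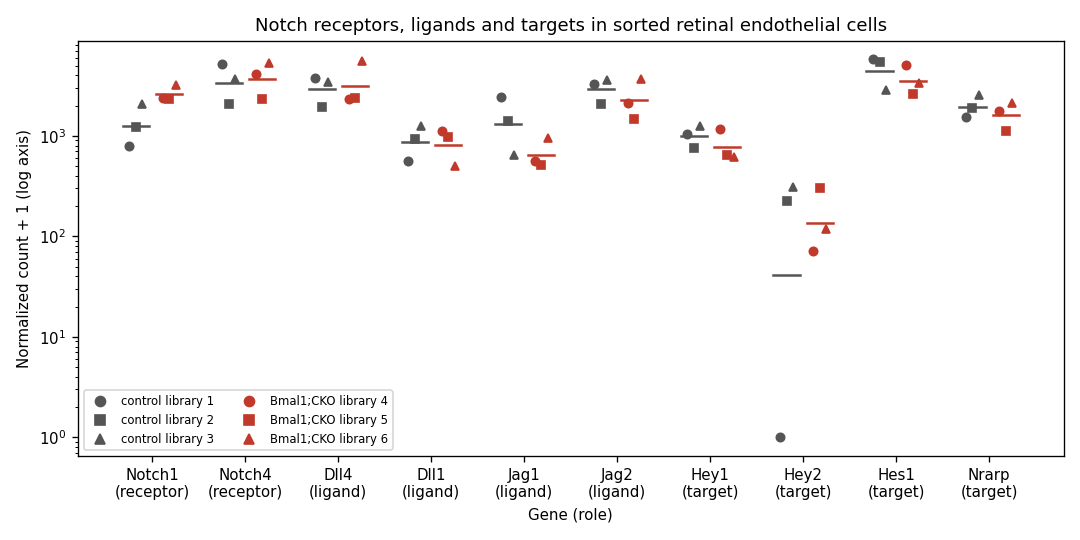
Normalized count + 1 on a log axis for the 10 Notch genes in each library, with gray for control, red for Bmal1;CKO and a bar at the mean of the log2 values (n = 3 per group). The 3 Bmal1;CKO libraries lie above the 3 control libraries for Notch1, and the groups overlap for the other 9 genes.

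Notch1 (ENSMUSG00000026923), the receptor through which DLL4 signals in stalk cells, lies on the reverse strand of chromosome 2 of GRCm38 from 26457903 to 26516663. It had 799, 1219 and 2084 normalized counts in control libraries 1, 2 and 3 and 2398, 2316 and 3219 in Bmal1;CKO libraries 4, 5 and 6. Every Bmal1;CKO library lay above every control library, and control library 3 was the closest to them. The control mean was 1367 ± 655 and the Bmal1;CKO mean 2644 ± 499.7 (SD, n = 3 each), a ratio of 1.93. The log2 fold change was 1.05 (standard error 0.40, 95% interval 0.11 to 1.98, unadjusted p = 0.0332 and adjusted p = 0.883 by limma-trend). With 1 library left out it lay between 0.71, without control library 1, and 1.40, without control library 3. Over the alternatives, its adjusted p ran from 0.218 to 1.00. On the opposite strand, 0610009E02Rik and Gm13568 together overlap 1482 bases of its exons, with 42.9 to 272 normalized counts for the former and 0 reads in every library for the latter. Progenitor markers, of a cell type that also uses NOTCH1, summed to 9072, 29255 and 38506 in control and 23489, 31357 and 36486 in Bmal1;CKO, and their part in the Notch1 values was not tested. In bulk RNA, fewer cells of a type and less RNA per cell cannot be told apart.

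Notch4 (ENSMUSG00000015468, chromosome 17, 34564268 to 34588503, forward strand), the endothelial receptor, had groups that overlapped. It had 5160, 2053 and 3654 normalized counts in control and 4120, 2327 and 5367 in Bmal1;CKO, with the lowest value in control library 2 and the highest in Bmal1;CKO library 6. Its log2 fold change of 0.14 (standard error 0.44, 95% interval -0.89 to 1.16, adjusted p = 0.955 by limma-trend) was smaller than the spread between libraries of a group and turned negative when control library 2 or Bmal1;CKO library 6 was left out, at -0.22 and -0.13. The interval leaves room for a change of either sign.

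Per kilobase of exon, Notch4 was the most abundant of the 4 Notch receptors in every library. It made up 67.9% to 80.2% of their summed level in control and 55.5% to 72.4% in Bmal1;CKO. The share of Notch1 was 7.03%, 23.5% and 21.9% in control and 23.9%, 31.3% and 22.9% in Bmal1;CKO. Control library 1 was the lowest by far, and the other 5 libraries ran from 21.9% to 31.3%, with library 5 the highest. Notch3, a receptor of mural cells, held 4.23% to 6.44% in control and 1.26% to 2.00% in Bmal1;CKO, without overlap. For Notch2 the lowest share was 0.401%, in control library 2, and the highest 11.2%, in library 5.

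Dll4 (ENSMUSG00000027314, chromosome 2, 119325784 to 119335962, forward strand), the tip cell ligand, did not separate the groups. Its normalized counts were 3726, 1951 and 3470 in control and 2323, 2373 and 5585 in Bmal1;CKO. Bmal1;CKO library 6 was the highest of the 6 libraries, whereas libraries 4 and 5 lay between the lowest and the middle control library. The log2 fold change was 0.10 (standard error 0.44, 95% interval -0.92 to 1.11, adjusted p = 0.971 by limma-trend), and without Bmal1;CKO library 6 it was -0.32. Without control library 2 it was -0.20. An opposite-strand gene, Gm14207, overlaps 214 bases of the Dll4 exons and had 621 to 2505 normalized counts. The use of strand in the counting is not given in the sources used here, so reads of the 2 genes in the shared bases cannot be told apart.

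Jag1 (ENSMUSG00000027276, chromosome 2, 137081456 to 137116644, reverse strand), the ligand that opposes DLL4, was lower on average in the mutant. Control libraries 1, 2 and 3 had 2434, 1406 and 642 normalized counts, and Bmal1;CKO libraries 4, 5 and 6 had 565, 516 and 948. Control libraries 1 and 2 lay above all Bmal1;CKO libraries, and control library 3 lay among them. The means were 1494 ± 899 and 676 ± 237 (SD, n = 3 each), a ratio of 0.453. By limma-trend the log2 fold change of Jag1 was -0.995 (standard error 0.55, 95% interval -2.28 to 0.29, unadjusted p = 0.111, adjusted p = 0.883). It was -0.54 without control library 1 and -1.50 without control library 3, and its lowest adjusted p over the alternatives was 0.296.

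Jag2 and Dll1, the other ligands, differed less than their libraries did within a group. Jag2 (ENSMUSG00000002799, chromosome 12, 112907819 to 112929776) had 3302, 2095 and 3581 normalized counts in control and 2104, 1466 and 3710 in Bmal1;CKO. The Jag2 log2 fold change was -0.37 (SE 0.41). Dll1 (ENSMUSG00000014773, chromosome 17, 15367354 to 15376872) had 556, 936 and 1260 in control and 1111, 985 and 502 in Bmal1;CKO. The Dll1 log2 fold change was -0.09 (SE 0.49). An opposite-strand gene, A930024N18Rik, overlaps 867 bases of the Dll1 exons and was not found by that name among the genes counted here. As for Dll4, reads of both genes in the shared bases cannot be told apart. The order of the libraries was not shared by the ligands: control library 1 was the highest for Jag1 and next to the lowest for Dll1.

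The ligand levels were also set against each other within each library, per kilobase of exon. Dll4 was the largest of the 4 in every library, with 39.9% to 49.4% of the summed level in control and 47.7% to 64.0% in Bmal1;CKO. Jag2 held 23.7% to 28.2% and 18.3% to 23.9%. The share of Jag1 was 21.0% and 19.0% in control libraries 1 and 2, 6.04% in control library 3, and 7.19% to 7.71% in Bmal1;CKO. Dll1 held 5.25% to 20.8% over the 6 libraries.

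**Figure D2:**
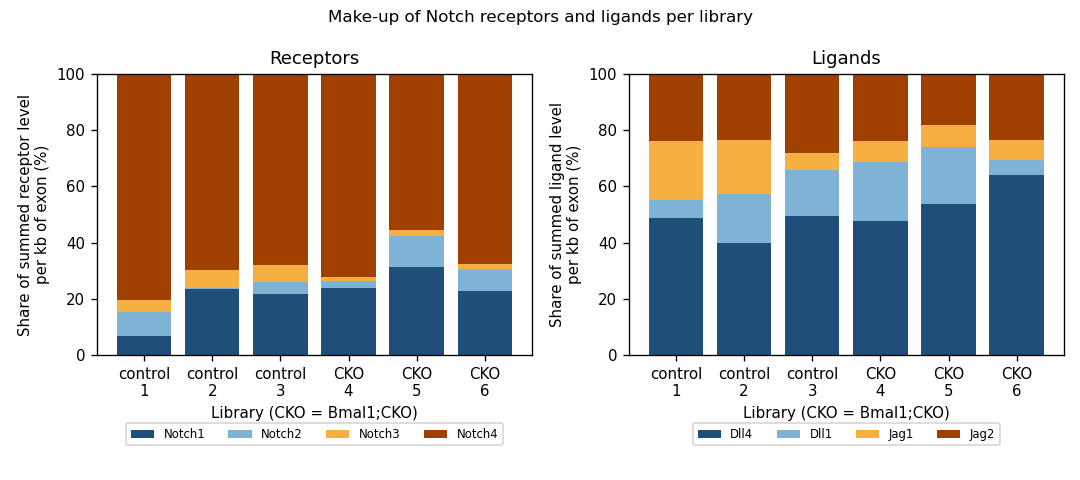
Share (%) of each receptor and each ligand in the summed level per kilobase of exon, by library. Notch4 and Dll4 are the largest share in every library, and the Jag1 share is near 20% in control libraries 1 and 2 only.

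Ratios of 3 gene pairs were compared within libraries, where the scaling of a library cancels. They are ratios of normalized counts without correction for gene length, so they compare libraries and not the genes of a pair. The ratio of Dll4 to Jag1 was 1.53 and 1.39 in control libraries 1 and 2 and 5.41 in control library 3. In Bmal1;CKO libraries 4, 5 and 6 it was 4.11, 4.60 and 5.89. The mean log2 ratio was 1.17 ± 1.09 for the control libraries and 2.26 ± 0.27 for the mutant ones (SD, n = 3 each). The difference of 1.09 (standard error 0.65) had p = 0.3 in a two-sided exact permutation test and an adjusted p of 0.45 over the 3 ratios. The smallest p that 3 libraries against 3 allow is 0.1. The difference was 0.81 without control library 1, 0.74 without control library 2 and 1.72 without control library 3. Control library 3 was the 1 control library among the Bmal1;CKO values. Leaving it out therefore separates the remaining groups by itself, and nothing is drawn from that.

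The ratio of Notch4 to Notch1 was 6.46 in control library 1, 1.68 and 1.75 in control libraries 2 and 3, and 1.72, 1.00 and 1.67 in Bmal1;CKO. The difference in log2 ratio was -0.91 (standard error 0.68; exact permutation test, p = 0.2, adjusted p = 0.45), and it was -0.27 without control library 1. The ratio of Hey1 to Hes1 was 0.182, 0.141 and 0.434 in control and 0.226, 0.246 and 0.182 in Bmal1;CKO. This log2 ratio differed by -0.04 (standard error 0.51; exact permutation test, p = 0.9, adjusted p = 0.9). In all 3 ratios the spread was wider in control, with SDs of 1.09, 1.10 and 0.85 against 0.27, 0.43 and 0.23.

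**Figure D3:**
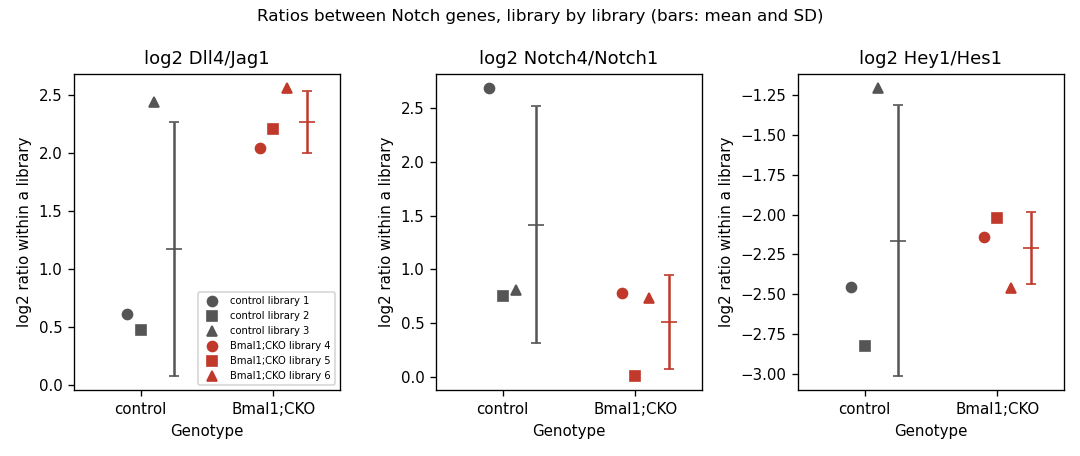
log2 ratios of Dll4 to Jag1, Notch4 to Notch1 and Hey1 to Hes1 within each library, by genotype, with the mean and SD beside the points (n = 3 per group). The groups overlap in each panel, and control library 3 lies with the Bmal1;CKO libraries for Dll4/Jag1.

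Among the targets, Hes1 (ENSMUSG00000022528, chromosome 16, 30064384 to 30067796, forward strand), a repressor of differentiation, was the most abundant per kilobase of exon. It had 5753, 5381 and 2882 normalized counts in control and 5115, 2613 and 3359 in Bmal1;CKO, with both groups split between high and low libraries. The log2 fold change was -0.33 (standard error 0.38, 95% interval -1.21 to 0.55, adjusted p = 0.888 by limma-trend). Nrarp (ENSMUSG00000078202, chromosome 2, 25180758 to 25183339), the feedback inhibitor, had 1544, 1883 and 2575 in control and 1761, 1109 and 2129 in Bmal1;CKO. The Nrarp log2 fold change was -0.28 (SE 0.36). The opposite-strand gene Gm38287 covers 2051 of the 2582 Nrarp exon bases and had 0 reads in all libraries. How reads in these shared bases were counted is not given in the sources used here. If they went uncounted, the 0 says nothing of Gm38287 and the Nrarp level per kilobase of exon is too low, which was not tested.

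Hey1 and Hey2 are closely related repressors, of which HEY2 is known for arterial identity. Hey1 (ENSMUSG00000040289, chromosome 3, 8663359 to 8667256) had 1047, 757 and 1250 normalized counts in control and 1158, 643 and 610 in Bmal1;CKO. The Hey1 log2 fold change was -0.38 (SE 0.42). Hey2 (ENSMUSG00000019789, chromosome 10, 30832359 to 30842801) was the least abundant of the 10 per kilobase of exon. Control library 1 had 0 reads on it, which allows up to 3.69 normalized counts (3 reads, counting error only), and control libraries 2 and 3 had 224 and 307. Bmal1;CKO libraries 4, 5 and 6 had 70.3, 302 and 118. The fitted log2 fold change of Hey2, 1.74 (standard error 2.13), rested on that 0: it was -0.94 without control library 1 and -0.12, -0.11 and -0.11 by edgeR under both scalings and by DESeq2.

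**Figure D4:**
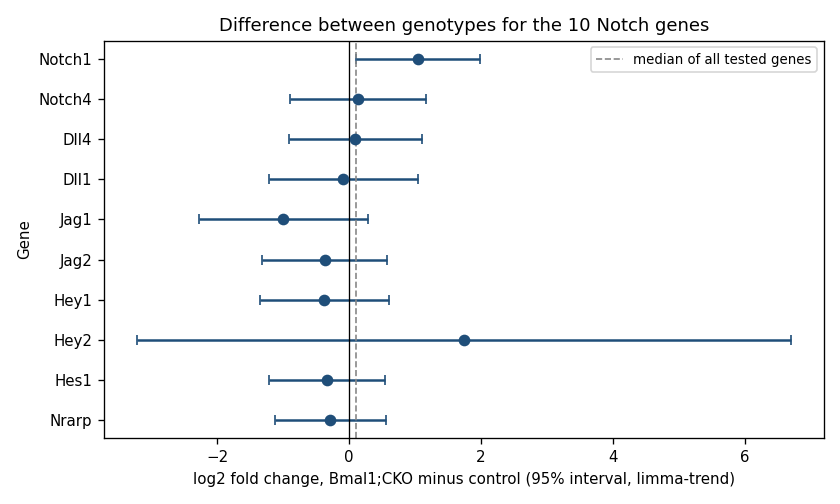
log2 fold change of the 10 Notch genes, Bmal1;CKO minus control, with 95% intervals from limma-trend (n = 3 per group), and a dashed line at the median of all tested genes. The interval of Notch1 lies above 0, from 0.11 to 1.98, and the other 9 include 0.

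Per kilobase of exon, the mean levels in control ran from 2294 normalized counts for Hes1 to 38.5 for Hey2. Between them came Dll4 (791), Nrarp (775), Notch4 (449), Jag2 (430), Hey1 (312), Jag1 (256), Dll1 (217) and Notch1 (96.1). In control, Hes1 lay above Dll4 without overlap of their libraries, and every other pair of neighbours in this order overlapped. In Bmal1;CKO the order was Hes1 (1814), Dll4 (890), Nrarp (645), Notch4 (488), Jag2 (348), Hey1 (246), Dll1 (205), Notch1 (186), Jag1 (116) and Hey2 (35.6). There, Jag1 lay above Hey2 without overlap, and every other pair of neighbours overlapped. On average Jag1 thus stood above Dll1 and Notch1 in control and below both in Bmal1;CKO. The places of Nrarp, Dll1 and Dll4 in both orders carry the limits given above for their shared bases.

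The genes with the most similar pattern over the 6 libraries were sought among the 15609 other genes with a mean of at least 100 normalized counts. For Dll4 these were Ahcyl2, Atp11a and Camk1d, with Pearson's r of 0.986, 0.983 and 0.977 on log2(normalized count + 1). Ahcyl2, the closest, had 891, 564 and 800 normalized counts in control and 616, 592 and 1045 in Bmal1;CKO. For Hes1 they were Rps2-ps10, 1110008P14Rik and Gm13680, each with r of 0.988. With 6 points and this many genes, such values are a description, and all genes share the same 6 libraries and their depth.

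Levels relative to endothelial content were obtained by subtracting the mean log2 level of the 14 endothelial markers from each library. Over all tested genes, this moved the median from 0.11 to 0.64 on the log2 scale, and changes are given beside that new median. The scaling raised the log2 fold change of every gene by the same amount. The distance of a gene from the median is thus the same as without the scaling. Notch1 then had a log2 fold change of 1.58 (standard error 0.69, unadjusted p = 0.0366, adjusted p = 0.824 by limma-trend). This value was 0.94 above the median, and the Notch1 groups again did not overlap. Notch4 had 0.67, close to the median, with groups that did not overlap either, as did 7% of all tested genes in the higher direction. Jag1 had -0.46, which is -1.10 relative to the median, and Dll4 had 0.63. On this scale Dll1, Jag2, Hey1, Hes1 and Nrarp had positive values of 0.16 to 0.45 in place of negative ones, all below the median. The count of genes at FDR < 0.05 among the 10 stayed at 0, with 1 (Notch1) at an unadjusted p under 0.05, against 4.12% of all tested genes on this scale. In the lower direction, groups did not overlap in 0 of the 10 and in 0.508% of all tested genes.

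The other Notch pathway genes were taken as a list of 49 genes, all of which passed the filter on reads. By limma-trend 0 were called at FDR < 0.05, as by edgeR, limma-voom and DESeq2, and 4 had an unadjusted p under 0.05 (8.16%, against 4.92% of all tested genes). Groups did not overlap in 11 of the 49 (22.4%, against 11.2% of all tested genes), 6 higher and 5 lower. Positive log2 fold changes were found in 34 (69.4%, against 56.6% of all tested genes) and negative ones in 15. The median was 0.24 beside 0.11 for all tested genes. At the unadjusted threshold 3 were higher (Hes5, Hes6 and Numbl) and 1 was lower (Adam10). The 5 lower without overlap were Adam10, Adam17, Aph1b, Notch3 and Mib1, a ubiquitin ligase of the ligands that was named after its values were seen (log2 fold change -0.61). The 6 higher without overlap were Hes5, Hes6, Numbl, Dll3, Spen and Dtx3. Spen and Dtx3 were also named after their values were seen (log2 fold changes 0.69 and 0.31).

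Adam10, the protease that makes the first activating cut in a ligand-bound receptor, had 4785, 3249 and 4302 normalized counts in control and 1781, 1788 and 2896 in Bmal1;CKO. All 3 Bmal1;CKO libraries lay below the lowest control library. The log2 fold change was -0.95 (standard error 0.31, unadjusted p = 0.0163, adjusted p = 0.883 by limma-trend), between -1.19 and -0.83 with 1 library left out. The unadjusted p was 0.0571 without Bmal1;CKO library 4 and 0.0634 without library 5. Scaled to the endothelial markers, the log2 fold change of Adam10 was -0.42 (unadjusted p = 0.467, adjusted p = 0.848 by limma-trend), where the median of all tested genes was 0.64. The related protease Adam17 had means of 3666 ± 953 and 2636 ± 175 (SD, n = 3 each), and Aph1b, a subunit of the γ-secretase that makes the second cut, 458 ± 236 and 182 ± 72.0 (SD, n = 3 each). Both were named after their values were seen and also had groups without overlap. By limma-trend their unadjusted p was 0.151 (Adam17) and 0.0855 (Aph1b), with an adjusted p of 0.883 for each. Aph1b has a close paralog, Aph1c, with a log2 fold change of 1.01. Both values are uncertain where the counting could split reads between the pair, which was not tested. Of the 10 proteases and subunits on the list, 7 had positive and 3 negative values, and 1 passed the unadjusted threshold.

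Hes5, a target of Notch in neural progenitors and Müller glia, had 987, 4024 and 2041 normalized counts in control and 21468, 6749 and 4510 in Bmal1;CKO. All 3 Bmal1;CKO libraries were above control, library 4 the most. The log2 fold change was 2.11 (standard error 0.68, unadjusted p = 0.0157, adjusted p = 0.883 by limma-trend). The opposite-strand gene Gm20421 overlaps 433 bases of the Hes5 exons, with the same limit on shared bases as for Dll4. Hes6, a neural relative that counters HES1, had means of 33324 ± 3656 and 67546 ± 23938 (SD, n = 3 each). The Hes6 log2 fold change was 0.95 (SE 0.34). Numbl, an inhibitor of Notch, had means of 949.8 ± 334 and 1881 ± 359.9 (SD, n = 3 each). The Numbl log2 fold change was 1.04 (SE 0.39).

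Dll3, a ligand of neural precursors that was named after its values were seen, had 7.38, 1292 and 852 normalized counts in control and 3904, 2791 and 2701 in Bmal1;CKO. Beside these genes, all 6 progenitor markers had a positive log2 fold change (median 0.94), Pax6 with a lower arithmetic mean in Bmal1;CKO all the same, with summed levels that overlapped as given above and 0 reads on 2 of them in control library 1. Of the 7 Müller glia markers 6 had a positive log2 fold change (median 0.48), with sums of 73198 to 81429 in control and 68025 to 97160 in Bmal1;CKO and the highest in library 4. Of all tested genes, 56.6% had a positive log2 fold change. The part of progenitors and Müller glia in the values of Hes5, Hes6, Numbl and Dll3 was not tested. The 4 ligands outside the 10 genes, Dll3, Dlk1, Dlk2 and Dner, had at most 7.38 normalized counts in control library 1.

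Notch3 and Heyl, a receptor and a target known from mural cells, followed different patterns. Notch3 had 273, 190 and 336 normalized counts in control and 71.7, 83.8 and 160 in Bmal1;CKO, without overlap. Its log2 fold change was -1.38 (standard error 0.69, unadjusted p = 0.0812, adjusted p = 0.883 by limma-trend), and -0.85 scaled to the endothelial markers. Heyl had 4.92, 1.86 and 3602 in control and 935, 448 and 984 in Bmal1;CKO, so that 1 control library held nearly all control reads. The 8 mural markers summed to 2365, 7478 and 48968 in control and 8969, 4351 and 7593 in Bmal1;CKO, likewise highest in control library 3. Only 2 of these markers had at least 10 reads in every library, and Myh11 was at 0 in control libraries 1 and 2. Whether mural RNA contributed to either gene was not tested.

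In the other named genes of the pathway the groups overlapped. Rbpj, the DNA-binding partner of the receptors, had 1235, 160 and 329 normalized counts in control and 271, 281 and 216 in Bmal1;CKO. The log2 fold change of Rbpj, -0.66 (SE 0.79), was 0.15 without control library 1. Mfng and Lfng, glycosyltransferases that tune the response of the receptors to their ligands, had log2 fold changes of 0.30 and 0.48 (standard errors 0.30 and 0.39), with 9310 to 19260 and 721 to 1819 normalized counts per library. Efnb2, an arterial gene downstream of Notch, had 410, 946 and 1292 in control and 643, 495 and 1297 in Bmal1;CKO, and the log2 fold change of Efnb2 was -0.09 (SE 0.58). Notch2 had 730, 15.8 and 282 in control and 191, 631 and 809 in Bmal1;CKO.

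**Figure D5:**
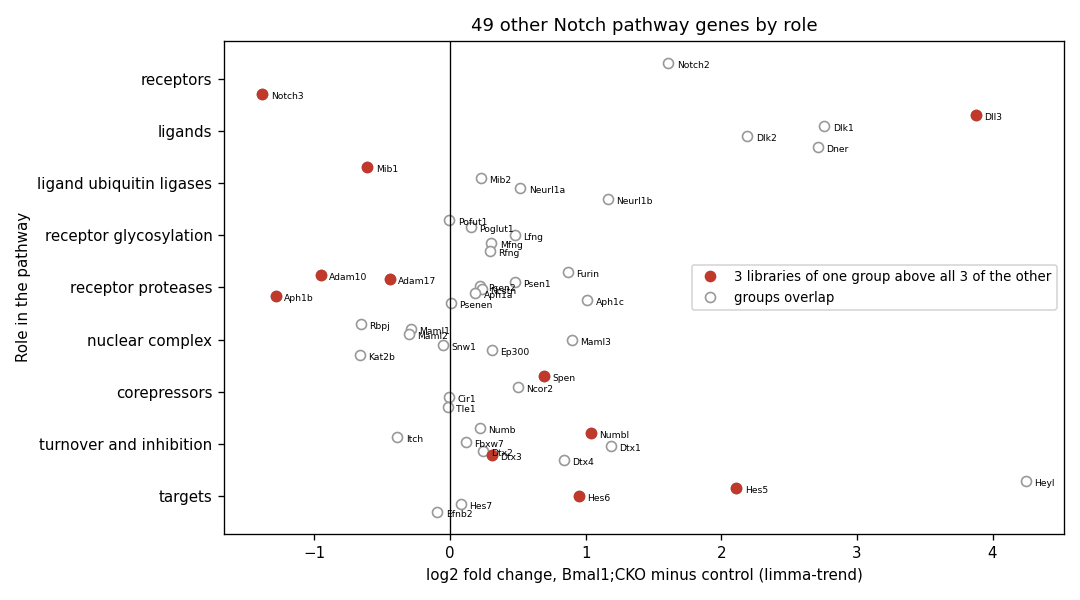
log2 fold change, Bmal1;CKO minus control, of the 49 other Notch pathway genes by role, with filled points where the groups did not overlap. The 11 filled points include Adam10, Adam17 and Aph1b on the left among the proteases and Hes5, Hes6 and Dll3 on the right.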

How the data were processed

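Picogram amounts of RNA from FACS-sorted cells were amplified (Smart v4), made into Nextera XT libraries and read from both ends. The authors used Trimmomatic for trimming, Bowtie for alignment to mouse mm10 (Ensembl GRCm38 release), featureCounts for reads per gene and DESeq2 for testing. The versions of these tools and the use of strand in counting are not given in the sources used here. The deposited values are a signal: counts divided by the library's size factor. The authors' deposited table also holds a log2 fold change, its standard error and Wald score, and the raw and adjusted p-value, and none of these was used. Column numbers disagree with the labels' numbering, so each column is a replicate of its genotype. Gene starts are counted from 0 in the table and are given here from 1.

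Dividing each column by its smallest step gave whole reads for 100% of the values (within 0.02 of a read). limma-trend (limma 3.58.1, R 4.3.3) was fitted to log2(normalized count + 1) over 20459 genes, with genotype as the only term and Benjamini-Hochberg adjustment over all of them. The limma-trend p-values weigh the difference between genotypes against the spread between libraries of a genotype. That spread is drawn toward the spread of genes at a similar level. Alternatives were edgeR 4.0.16 and DESeq2 1.42.0 on the recovered reads, limma-voom, other scalings, filters and pseudocounts, and leaving out each library. The fits were tested on simulated data. Exon lengths came from GENCODE M21 (GRCm38), which holds 55141 of the 55487 identifiers, and permutation tests from scipy 1.17.1. Proteins, and promoters of Hes1 and Hey1, were not used here.

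The 10 genes and the gene lists were chosen with earlier results of these data known. Named in the text were the 10 genes, 8 close partners (Notch2, Notch3, Rbpj, Lfng, Mfng, Heyl, Hes5, Efnb2), pathway genes at an unadjusted p under 0.05 without overlap of the groups, and the 3 genes closest in pattern to Dll4 and to Hes1. Adam17, Aph1b, Aph1c, Mib1, Dll3, Dlk1, Dlk2, Dner, Spen and Dtx3 fall outside this rule and were chosen after their values were seen. Of the marker lists, astrocytes summed to 424 to 6060 normalized counts and ganglion and amacrine neurons to 5167 to 13248 per library.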

Additional observations from a re-analysis of the deposited data

How the results depend on the processing

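Counts at FDR < 0.05 stayed at 0 for the 10 Notch genes and for the 49 other pathway genes under every alternative run. At an unadjusted p under 0.05 the 10 genes gave 0 with edgeR and TMM scaling and with limma without the trend, 2 with DESeq2, and 0 to 2 with 1 library left out, with 2 (Notch1 and Jag1) without control library 3 and 0 without each of the other 5. Over all tested genes, the share at that threshold was 4.92% with limma-trend, 5.92% with DESeq2, 8.63% without control library 1, 11.9% without control library 3 and 1.64% without Bmal1;CKO library 4 or 5. The other pathway genes gave 8 with DESeq2 and 1 to 10 with 1 library left out, with 10 without control library 1 or 3 and 1 without Bmal1;CKO library 4 or 5. Scaled to the endothelial markers, the median log2 fold change was 0.35 for the 10 genes and 0.78 for the others, where the median of all tested genes was 0.64. That median was 0.11 with limma-trend and -0.03 with edgeR (both scalings) and DESeq2. With 1 library left out these medians ran from -0.31 to 0.05 and from 0.14 to 0.42.

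Single genes changed sign as follows. Scaled to the endothelial markers, values were 0.45 for Dll1, 0.16 for Jag2, 0.16 for Hey1, 0.20 for Hes1, 0.25 for Nrarp and 0.44 for Efnb2. Heyl had -0.64 and -0.61 with edgeR under TMM and the size factors and -0.61 with DESeq2, and Hey2 -0.12, -0.11 and -0.11. Leaving out 1 library gave ranges of -0.22 to 0.48 for Notch4, -0.32 to 0.31 for Dll4, -0.41 to 0.27 for Dll1, -0.94 to 3.19 for Hey2, -1.32 to 0.15 for Rbpj and -0.57 to 0.26 for Efnb2. The difference in log2 Hey1/Hes1 ran from -0.38 to 0.43, that in Dll4/Jag1 from 0.74 to 1.72 and that in Notch4/Notch1 from -1.24 to -0.27. The endothelial scaling raised every log2 fold change by the same amount, so the sign changes under it follow from that amount alone. Beyond this and the 0 reads given above for Hey2, the causes of these changes were not tested. Hey2 could not be given a value where 10 reads were required in every library.

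No paired analysis was possible because the table's columns carry no number that matches the labels' replicate numbers, so the replicate block was not run. Those numbers are given within each group, and the sources used here name no pairing of control and mutant animals. A shared number is thus not known to mark a pair, and all tests were unpaired. With 3 libraries per group, the 95% intervals of 9 of the 10 genes include changes of either sign.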
